A study of Homo sapiens with 6 samples.

Results

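The ETS transcription factors examined here were ETV4, ETV5, ERG, ETS1, ETS2, ELF3, EHF, SPDEF and ELK4, chosen by name as the ETS genes of interest in prostate cancer other than ETV1. These 9 genes were looked up by symbol among the 35554 genes of the deposited count table, and all of them were found. RNA sequencing was performed on parental LNCaP cells and on LNCaP-enzaR cells, with 3 libraries of each. LNCaP is an established line from a metastatic human prostate carcinoma, and LNCaP-enzaR was derived from it by the study through continuous growth in enzalutamide, an inhibitor of androgen signaling, followed by maintenance on a lower concentration. Both were kept in serum-containing RPMI medium, plated in flasks and harvested before confluence. The labels do not say whether the drug was present at harvest, and the methods do not say whether LNCaP-enzaR is 1 clone. Each line has 1 culture history, so that lasting resistance, drug exposure and drift in culture cannot be told apart.

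ETS factors share a DNA-binding domain that recognizes sites around a GGAA core, and they differ in their partners, their regulation by kinases and the tissues in which they act. ETV4 and ETV5 form the PEA3 group with ETV1 and are induced by MAPK signaling, ERG and ETV1 are the family members most often activated by gene fusion in prostate cancer, and EHF, ELF3 and SPDEF are factors of epithelial cells. LNCaP is known to carry a rearrangement that drives ETV1, and it lacks the TMPRSS2-ERG fusion.

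Libraries held 77759122 to 98616465 counts. Transcripts of the mitochondrial genome took 6.72% to 7.06% of the counts in parental cells and 14.7% to 15.5% in LNCaP-enzaR. Within a line, pairs of libraries differed by more than counting noise, with a chi-square per degree of freedom of 5.88 to 9.82 in parental cells. In LNCaP-enzaR this value was 39.8 and 31.4 for the pairs with replicate 1 and 7.42 for the other pair, so that replicate 1 stood apart. Of 9 markers of luminal prostate epithelium, all were detected in both lines, with a summed level of 4800 to 4936 CPM in parental cells and 3128 to 3427 CPM in LNCaP-enzaR. The sum hides different directions. By the threshold given below, 1 marker (KRT8) was higher in LNCaP-enzaR, 5 were lower and 3 did not pass it. CPM are counts scaled to a common library size (1000000) after TMM adjustment, which corrects for differences in composition. Of the endothelial markers, 1 of 5 passed the filter on low counts. This was VWF, at 5.74 ± 0.329 CPM in parental cells and 4.15 ± 0.209 CPM in LNCaP-enzaR (SD, n = 3 each). None of the 4 leukocyte markers passed, with at most 10 counts in any library. Endothelium and leukocytes normally express ETS genes such as ERG, FLI1 and SPI1. Of 5 fibroblast markers, 3 passed the filter. The highest, COL1A1, was at 13.3 ± 1.5 CPM in parental cells and 4.29 ± 0.436 CPM in LNCaP-enzaR. These markers did not share a direction. By the threshold given below, COL1A1 was lower and LUM was higher in LNCaP-enzaR, with log2 fold changes of −1.64 and 1.78. LUM was at a low level in both lines (means of 0.425 and 1.44 CPM). COL3A1, with a log2 fold change of −0.38, did not pass the threshold.

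Of the 9 genes, 8 passed the filter and were tested, and all 8 were past the threshold, which was an adjusted p of at most 0.05 with a fold change of at least 1.5 (edgeR quasi-likelihood test, Benjamini-Hochberg adjusted over 19711 genes). The same threshold was passed by 42.7% of all genes tested, but the 9 genes were chosen with earlier results of these data known. Expression was higher in LNCaP-enzaR for ETV4, ETV5, ETS2 and ELF3 and lower for ETS1, EHF, SPDEF and ELK4. Genes called higher made up 23.3% and genes called lower 19.5% of all genes tested. In each of the 8 genes the libraries of both lines did not overlap, which was the case for 70.6% of all genes tested. The median log2 fold change of the 8 genes was 0.01, as it was over all genes tested. When LNCaP-enzaR replicate 1, which stood apart, was left out, all 8 genes remained past the threshold in the same direction. ERG did not pass the filter. In these bulk libraries, fewer cells expressing a gene and less RNA of it per cell cannot be told apart.

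**Figure D1:**
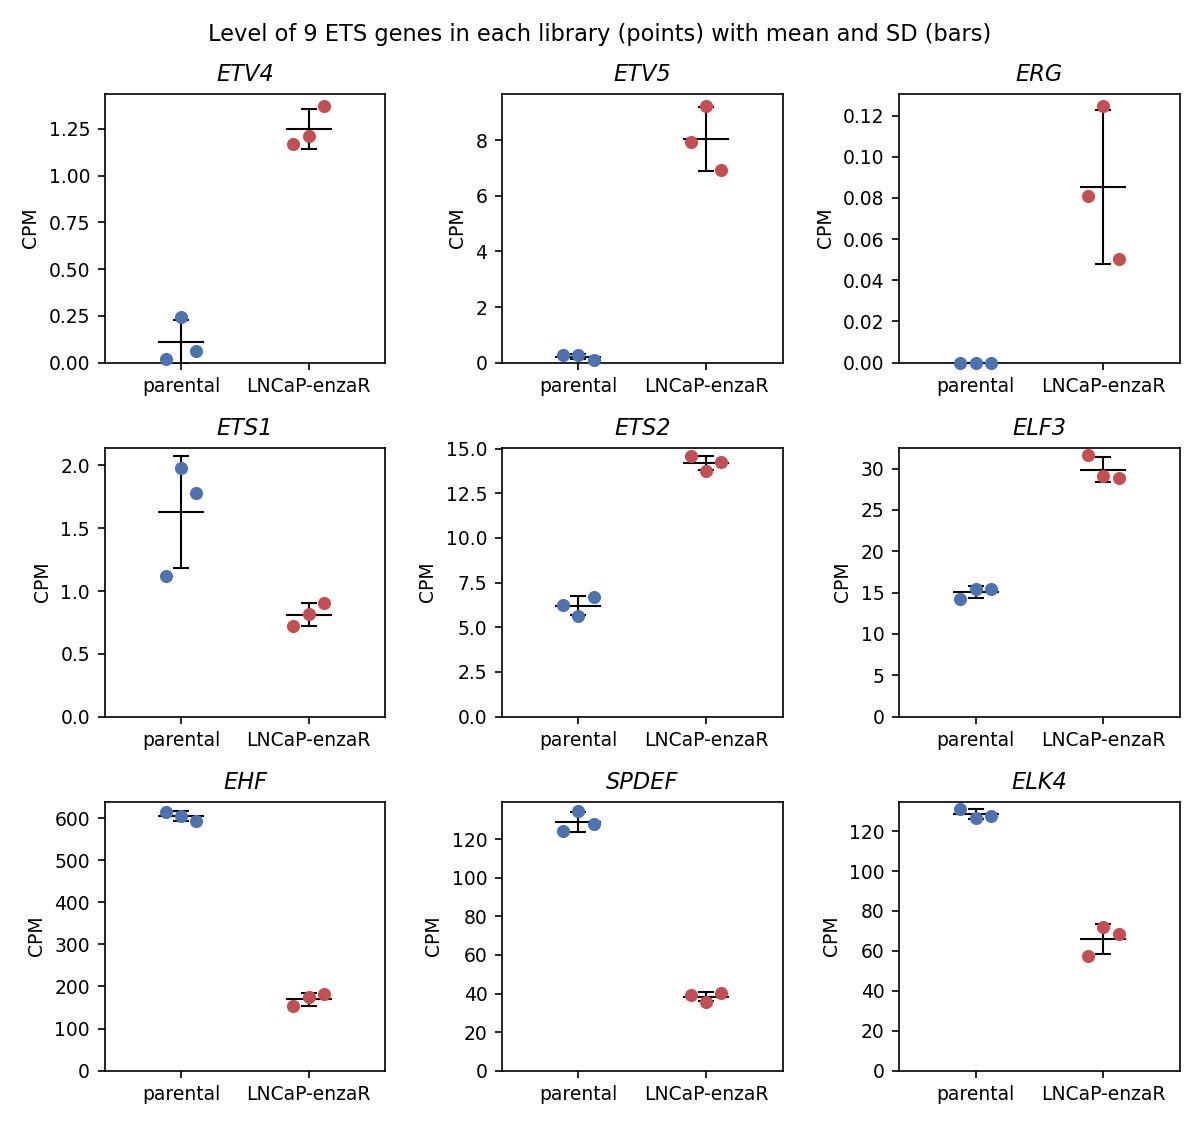
Level of each of the 9 ETS genes in CPM (linear axes from 0, a different range in each panel) in the 3 parental libraries (blue points) and the 3 LNCaP-enzaR libraries (red points), with mean and SD (black bars). In the 8 tested genes the libraries of both lines are separate, whereas ERG lies at 0 in parental cells and at 0.125 CPM or less in LNCaP-enzaR.

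Among the 8 tested genes, ETV5 showed the largest fold change. ETV5 (ENSG00000244405.8, chromosome 3, 186046314 to 186110318, GRCh38, minus strand) is a PEA3-group activator that also acts in kidney, lung and germline development. Its level was 0.281, 0.264 and 0.102 CPM in parental replicates 1 to 3 and 7.94, 9.22 and 6.94 CPM in LNCaP-enzaR replicates 1 to 3. These levels rest on 8 to 26 counts per parental library and 685 to 815 counts per LNCaP-enzaR library, so that the gene went from near the limit of detection to a clear signal. The log2 fold change was 5.18 (SE 0.225, edgeR adjusted p = 7.69e-11), which is 36.2-fold. Leaving out 1 library at a time moved it between 4.87 and 5.40.

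ETV4 (ENSG00000175832.13, chromosome 17, 43527844 to 43579620, minus strand), the closest relative of ETV5 among the members, rose as well but stayed at a low level. It held 2, 22 and 5 counts in parental replicates 1 to 3, or 0.0216, 0.242 and 0.0636 CPM. In LNCaP-enzaR it held 101, 107 and 136 counts, or 1.17, 1.21 and 1.37 CPM. Parental replicate 2 was the highest of its group and still well below every LNCaP-enzaR library. The log2 fold change was 3.49 (SE 0.481, edgeR adjusted p = 1.58e-05), and without parental replicate 2 it was 4.88, so that its size depends on that library while its direction does not. In LNCaP-enzaR the count of ETV4 was 0.131 to 0.197 times that of ETV5 in the same library.

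ETV1, the third gene of the PEA3 group, went the other way. It stood at 355 ± 14.8 CPM in the parental line and fell to 1.13 ± 0.0503 CPM (SD, n = 3 each). The count ratio of ETV5 to ETV1 within a library was 0.0003 to 0.00076 in parental cells and 6.10 to 7.84 in LNCaP-enzaR. Per kb of exon, ETV5 and ETV4 stood at 1.39 and 0.356 CPM in LNCaP-enzaR, against 37.1 CPM for ETV1 in parental cells.

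ETS2 and ELF3 changed by about the same factor from moderate levels. ETS2 (ENSG00000157557.13, chromosome 21, 38805183 to 38824955, plus strand), a factor phosphorylated by ERK, was at 6.26, 5.66 and 6.72 CPM in parental libraries and at 14.6, 13.8 and 14.2 CPM in LNCaP-enzaR libraries. Its log2 fold change was 1.19 (SE 0.0894, edgeR adjusted p = 2.74e-08). ELF3 (ENSG00000163435.16, chromosome 1, 202007945 to 202017183, plus strand), an epithelium-specific factor of differentiating and inflamed epithelia, was at 14.3, 15.5 and 15.5 CPM in parental libraries and at 31.7, 29.1 and 28.9 CPM in LNCaP-enzaR libraries. It rose by 0.99 on the log2 scale, or 1.98-fold (edgeR adjusted p = 2.14e-08, SE 0.0723). Both genes varied little among replicates, with a coefficient of variation of 2.95% to 8.55%. Of the exonic bases of ELF3, 18.5% lie in exons of other genes, among them its antisense gene ELF3-AS1, and the counting is not stated to use strand. ELF3-AS1 went from 6.71 ± 0.635 to 8.72 ± 1.33 CPM (SD, n = 3 each) and was not past the threshold.

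The members with the highest levels all fell. EHF (ENSG00000135373.13, chromosome 11, 34621093 to 34663288, plus strand), an epithelium-specific ETS factor and close relative of ELF3, was at 616, 606 and 593 CPM in parental replicates 1 to 3. In LNCaP-enzaR replicates 1 to 3 it was at 153, 174 and 181 CPM. Every parental library was more than 3 times as high as every LNCaP-enzaR library, and the log2 fold change was −1.84 (SE 0.0648, edgeR adjusted p = 8.88e-12), or 3.57-fold lower. EHF and ELF3, although related, thus changed in opposite directions.

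SPDEF (ENSG00000124664.11, chromosome 6, 34537802 to 34556333, minus strand), a factor of luminal prostate and secretory epithelium first described through its action on the prostate-specific antigen promoter, was at 124, 135 and 128 CPM in parental libraries. It was at 39.3, 35.7 and 40.1 CPM in LNCaP-enzaR libraries, a log2 difference of −1.75 (edgeR adjusted p = 1.36e-11, SE 0.0642). The decrease of SPDEF, 3.36-fold, was close in size to that of EHF, and the count ratio of EHF to SPDEF was 4.50 to 4.96 in parental libraries and 3.89 to 4.88 in LNCaP-enzaR libraries, ranges that overlap.

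ELK4 (ENSG00000158711.14, chromosome 1, 205597556 to 205632011, minus strand) is a ternary complex factor, which binds DNA together with SRF. It was at 131, 127 and 127 CPM in parental libraries and at 57.6, 72.2 and 68.5 CPM in LNCaP-enzaR libraries, with replicate 1 the lowest. The log2 fold change was −0.96 (SE 0.0747, edgeR adjusted p = 4.17e-08), or 1.94-fold lower, and without LNCaP-enzaR replicate 1 the value was −0.86.

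ETS1 (ENSG00000134954.14, chromosome 11, 128458761 to 128587558, minus strand), a factor best known from lymphocytes, endothelium and invasive tumors, was low in both lines. It held 104, 180 and 140 counts in parental libraries, or 1.12, 1.98 and 1.78 CPM, and 62, 72 and 90 counts in LNCaP-enzaR libraries, or 0.718, 0.815 and 0.907 CPM. The groups were separated only by the gap between parental replicate 1 and LNCaP-enzaR replicate 3. The log2 fold change was −0.995 (SE 0.237, edgeR adjusted p = 0.00193), and leaving out 1 library at a time gave −1.21 to −0.83. ETS1 and ETS2, which arose as a pair of paralogs, changed in opposite directions.

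ERG (ENSG00000157554.19, chromosome 21, 38380027 to 38661780, minus strand), the factor that the TMPRSS2 fusion activates in many prostate cancers, had 0 counts in each parental library and 7, 11 and 5 counts in the LNCaP-enzaR libraries. A count of 0 allows up to 3 counts, or 0.0324 to 0.0382 CPM. The mean ERG level in LNCaP-enzaR, 0.0853 CPM, was 2.47-fold higher than the mean of these parental limits. The limits cover counting error in the parental libraries only, and the error of the low LNCaP-enzaR counts is not included. Without the filter, ERG had an edgeR adjusted p of 0.0045. TMPRSS2, whose promoter drives ERG in the fusion and which responds to androgen, was at 78.9, 89.3 and 86.5 CPM in parental libraries and at 95.2, 96.0 and 93.2 CPM in LNCaP-enzaR libraries. The change of 0.16 on the log2 scale (edgeR adjusted p = 0.0305, SE 0.0599) was short of the fold limit, and ERG counts were at most 0.0013 times those of TMPRSS2 in the same library.

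**Figure D2:**
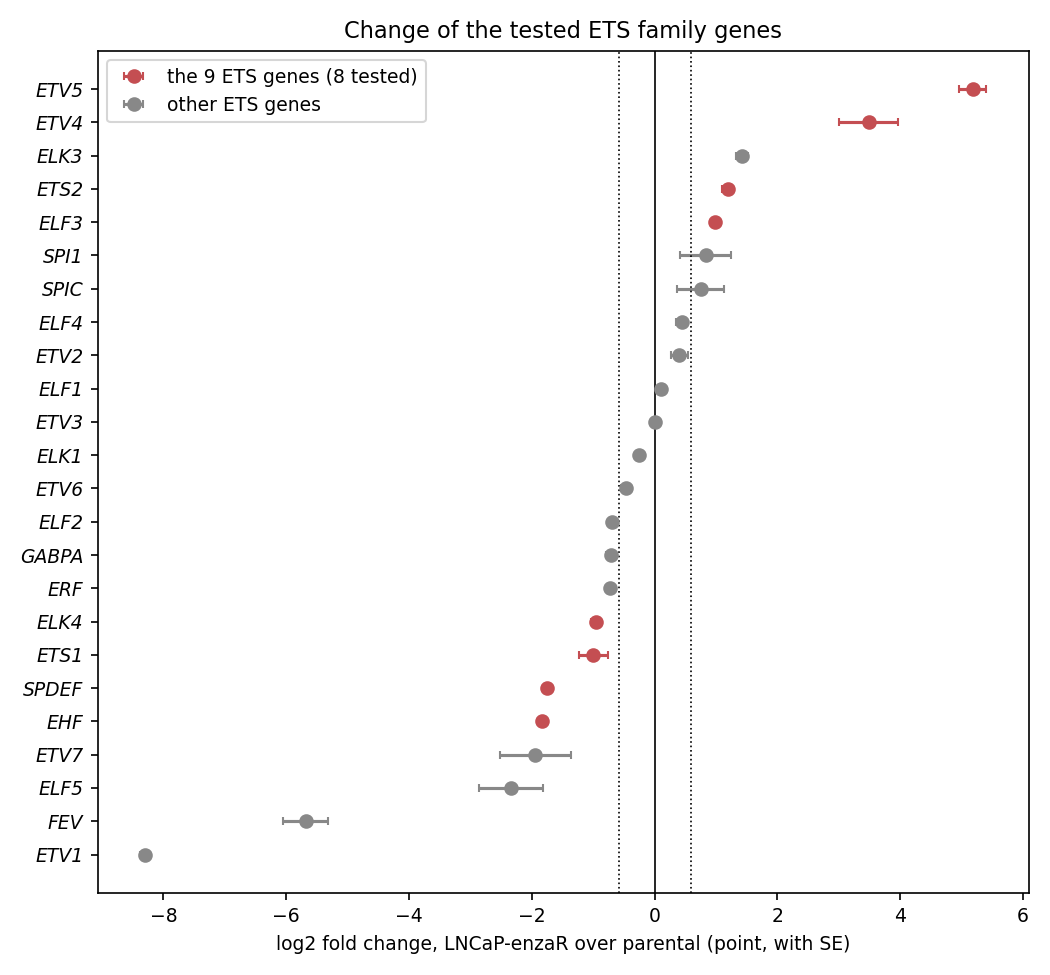
Log2 fold change of LNCaP-enzaR over parental cells with its SE for the tested ETS genes, with the examined genes in red and the other ETS genes in gray. Dotted lines mark the 1.5-fold limit. ETV5 (5.18) and ETV4 (3.49) are at the top, and ETV1 (−8.29) is at the bottom.

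To compare levels between genes, CPM were divided by the length of the union of exons in kb. In parental cells the order of the 9 genes by CPM per kb was EHF, SPDEF, ELK4, ELF3, ETS2, ETS1, ETV5, ETV4 and ERG. Only ETV5 and ETV4, at 0.0373 and 0.031 CPM per kb, had overlapping ranges among neighbors in that order. In LNCaP-enzaR the order was EHF, SPDEF, ELK4, ELF3, ETS2, ETV5, ETV4, ETS1 and ERG, with no overlap between neighbors. EHF stood at 91.4 ± 1.73 CPM per kb in parental cells and 25.6 ± 2.23 in LNCaP-enzaR, and SPDEF at 67.3 ± 2.79 and 20.04 ± 1.24 (SD, n = 3 each). With this length, EHF and SPDEF held ranks 1 and 2 among the 27 ETS genes in the table in either line, and ELK1 followed SPDEF at 18.1 CPM per kb in LNCaP-enzaR. The rank of SPDEF depends on the length used: with that of the longest transcript, ELK1 made up 15.5% and SPDEF 14.5% of the family sum in LNCaP-enzaR. ETV5 moved from rank 23 to rank 15 among the ETS genes and ETV4 from 24 to 18, while ETS1 moved from 18 to 21.

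Summed over the 27 ETS genes, the parental level was 275 ± 3.56 CPM per kb and that of LNCaP-enzaR 115 ± 2.62 (SD, n = 3 each). The sum over the 9 genes was 173 ± 2.75 and 59.9 ± 2.54. EHF made up 33.2% ± 0.437 of the family sum in parental cells and 22.3% ± 1.46 in LNCaP-enzaR, and SPDEF made up 24.4% ± 0.904 and 17.5% ± 1.16. The share of ELF3 was 0.762% ± 0.0387 and 3.63% ± 0.274, that of ETS2 0.454% ± 0.0445 and 2.49% ± 0.118, and that of ETV5 0.0135% ± 0.0061 and 1.22% ± 0.18. A share also moves when other genes of the sum change, and ETV1 held 13.5% ± 0.457 of the parental sum. The share of the 9 genes together was 62.8% ± 0.444 in parental cells and 52.3% ± 1.09 in LNCaP-enzaR, but without division by length it was 57.6% ± 0.357 and 56.7% ± 1.18, with overlapping ranges.

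**Figure D3:**
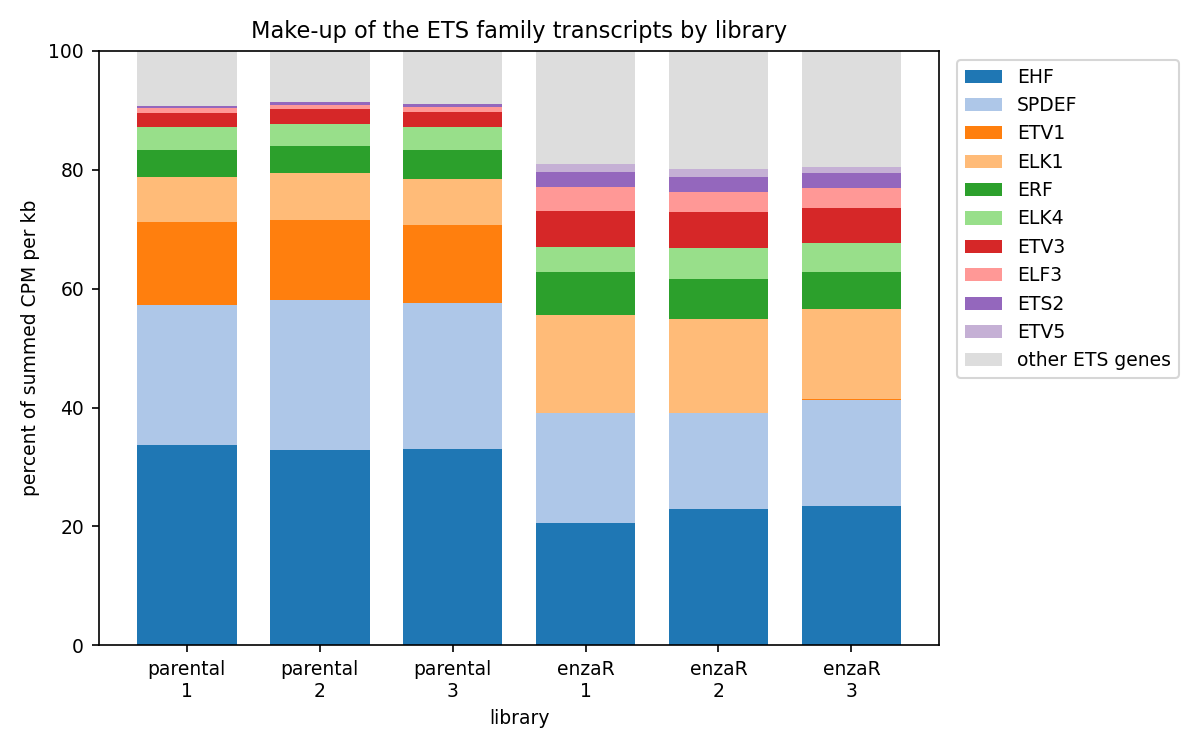
Share of each ETS gene in the summed CPM per kb of the ETS family (percent, stacked to 100), for each of the 6 libraries. EHF (dark blue) and SPDEF (light blue) are the largest shares in every library, and ETV1 (dark orange) is 13.5% on average in parental cells and 0.103% in LNCaP-enzaR.

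Of the 19 other ETS genes, 18 were in the table and 16 were tested. Of these, 1 was higher and 7 were lower past the threshold, beside 23.3% higher and 19.5% lower over all genes tested. Their median log2 fold change was −0.35, against 0.01 over all genes tested. ELK3, a ternary complex factor like ELK4, rose from 6.18 ± 0.709 to 16.6 ± 1.18 CPM (log2 fold change 1.42, SE 0.0988, edgeR adjusted p = 1.17e-08). The ternary complex factors thus went in different directions, since ELK4 fell and ELK1, at −0.25, was short of the fold limit. ERF, an ETS repressor controlled by ERK, fell by 0.72 on the log2 scale, and ELF2 and GABPA fell by 0.69 and 0.71. FEV, a factor of serotonergic neurons and relative of ERG, went from 139 to 177 counts per parental library to 1 to 5 counts per LNCaP-enzaR library (log2 fold change −5.68). ETV7 had a log2 fold change of −1.94, which ranged from −2.32 to −1.40 when 1 library was left out, and was −1.40 with an edgeR adjusted p of 0.0767 without parental replicate 1. FLI1, the closest relative of ERG, had 0 counts in parental libraries and 13, 0 and 10 in LNCaP-enzaR libraries, and SPIB had at most 3 counts in any library. Neither passed the filter.

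Several of the genes lie next to another ETS gene, from duplications early in the history of the family. ERG and ETS2 are separated by 143 kb on chromosome 21, ETS1 and FLI1 by 99 kb on chromosome 11, and ELF5 and EHF by 95.9 kb on chromosome 11. ELF5, like EHF, was lower in LNCaP-enzaR (log2 fold change −2.34, SE 0.524, edgeR adjusted p = 0.00118), with 50 to 106 counts per parental library and 4, 8 and 34 counts in LNCaP-enzaR. When LNCaP-enzaR replicate 3 was left out, the value was −3.57. APIP, on the other side of EHF, fell by 0.67 on the log2 scale.

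The neighbors of the other genes did not share one direction with them. Of 19 different protein-coding genes that were the nearest tested gene on either side or overlapped a member, 10 were past the threshold, 5 higher and 5 lower, beside 42.7% of all genes tested. These 10 include ETS2, as the neighbor of ERG, and ELF5 and APIP. Next to ETV5, TRA2B was lower (−1.05) and CRYGS had a log2 fold change of 0.09 (edgeR adjusted p = 0.83). Around ETV4, the overlapping gene DHX8 and the neighbor DUSP3 had log2 fold changes of 0.14 and −0.39, both short of the fold limit. SPDEF lies 2.57 kb from PACSIN1, which was higher (0.69), and 31 kb from ILRUN, at −0.17. ELF3 lies 1.8 kb from RNPEP, at −0.06 (adjusted p = 0.365), and on its other side GPR37L1 was higher (3.41) at a level below 1 CPM on average. ARHGAP32, next to ETS1, was lower (−0.79), and DYRK1A and PSMG1, next to ERG and ETS2, had log2 fold changes of 0.11 and −0.45.

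ELK4 lies 25.8 kb from SLC45A3, an androgen-induced prostate gene that is known to form read-through transcripts with it. SLC45A3 was at 367, 357 and 393 CPM in parental libraries and at 14.6, 13.7 and 13.7 CPM in LNCaP-enzaR libraries (log2 fold change −4.73, SE 0.0664, edgeR adjusted p = 1.85e-15). The count ratio of ELK4 to SLC45A3 was 0.325 to 0.358 in parental libraries and 3.94 to 5.25 in LNCaP-enzaR libraries, so that the decrease of ELK4 was much smaller than that of its neighbor. Counts per gene do not separate read-through transcripts from native ones, and their part in the ELK4 level was not tested. MFSD4A, which overlaps the other end of ELK4, was higher (1.15), as was CDK18 beyond it (0.79).

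**Figure D4:**
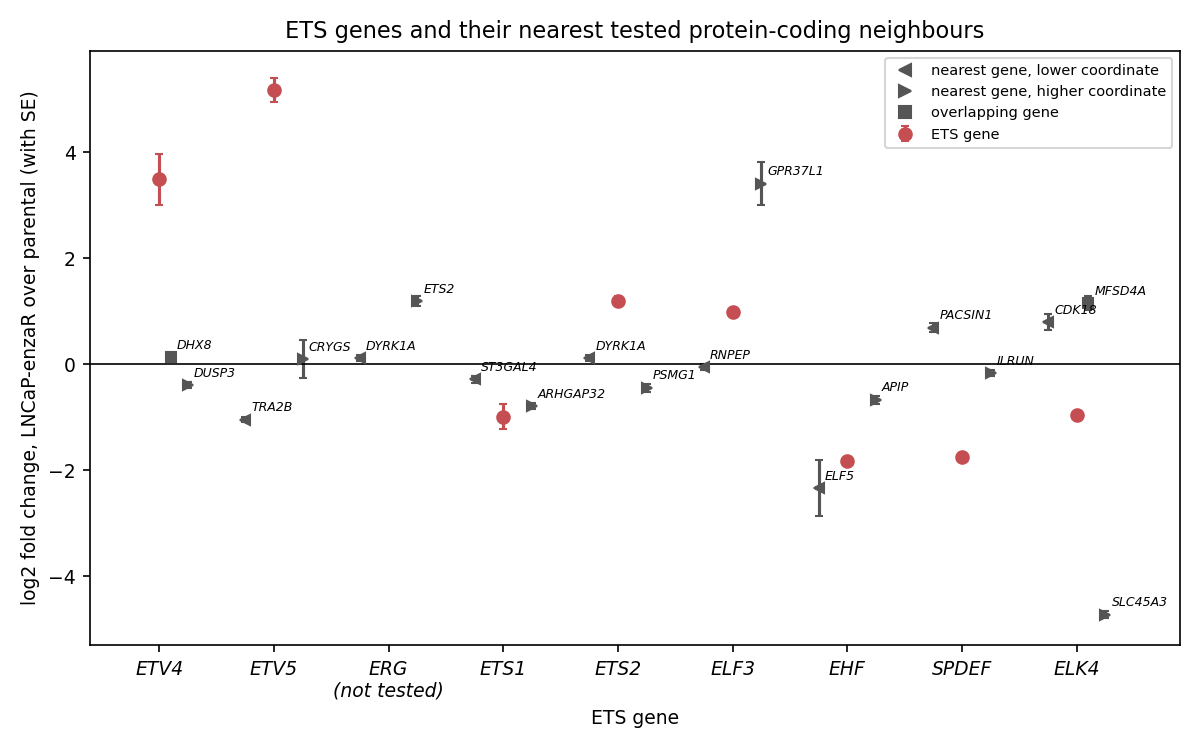
Log2 fold change (LNCaP-enzaR over parental, with SE) of each ETS gene (red) and of those nearest tested protein-coding genes that are reported, on the lower (left-pointing) and higher (right-pointing) coordinate side and of overlapping genes (squares). ELF5 lies below 0 beside EHF, and SLC45A3 (−4.73) lies far below ELK4 (−0.96).

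RefSeq promoter sequences (GRCh38.p14, 250 bases before to 50 after the start, on the strand of the gene) were at hand for ERG, ETS2, ELF3, EHF, SPDEF and ELK4. Those of the 3 abundant genes that fell and of ELF3, which rose, are given because ETS factors can act on ETS genes, and capitals mark the ETS core GGAA on either strand (written TTCC where it lies on the opposite strand). They are at chr11:34624007-34624306 for EHF (the first of its starts in the list), chr6:34556280-34556579 for SPDEF, chr1:205631962-205632261 for ELK4 and chr1:202010337-202010636 for ELF3.
EHF: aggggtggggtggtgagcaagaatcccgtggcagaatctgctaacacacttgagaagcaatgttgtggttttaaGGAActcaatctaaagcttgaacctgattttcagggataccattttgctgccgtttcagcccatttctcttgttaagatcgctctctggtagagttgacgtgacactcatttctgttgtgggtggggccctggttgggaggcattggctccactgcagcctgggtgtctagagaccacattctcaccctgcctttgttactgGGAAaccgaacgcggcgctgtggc
SPDEF: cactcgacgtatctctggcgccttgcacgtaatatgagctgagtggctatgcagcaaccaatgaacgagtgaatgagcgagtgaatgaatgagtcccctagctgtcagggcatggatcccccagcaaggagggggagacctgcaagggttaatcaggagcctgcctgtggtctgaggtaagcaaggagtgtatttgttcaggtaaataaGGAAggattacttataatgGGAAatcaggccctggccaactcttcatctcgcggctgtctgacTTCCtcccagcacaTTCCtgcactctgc
ELK4: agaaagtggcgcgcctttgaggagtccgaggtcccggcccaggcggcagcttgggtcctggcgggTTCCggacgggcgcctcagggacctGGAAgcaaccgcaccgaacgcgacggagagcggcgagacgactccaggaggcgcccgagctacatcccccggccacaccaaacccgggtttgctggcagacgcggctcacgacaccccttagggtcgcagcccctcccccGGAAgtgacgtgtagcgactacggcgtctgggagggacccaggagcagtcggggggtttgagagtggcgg
ELF3: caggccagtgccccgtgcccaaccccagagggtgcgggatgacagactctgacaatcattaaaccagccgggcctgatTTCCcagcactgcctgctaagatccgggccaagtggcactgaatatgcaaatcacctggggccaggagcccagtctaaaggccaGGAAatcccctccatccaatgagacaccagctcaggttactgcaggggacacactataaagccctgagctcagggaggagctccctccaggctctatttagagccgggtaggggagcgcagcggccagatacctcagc
The core occurs 2 times in this EHF sequence (0 times in that of its other start), 4 times in the SPDEF, 3 times in the ELK4 and 2 times in the ELF3 sequence, against a median of 3 over 35116 promoters, of which 95.5% hold it at least once. The longer ETS motif CCGGAAGT, searched on both strands and containing the core, is in the ELK4 promoter and in none of the other promoters of the 6 members searched, and in 4.14% of all promoters. A match of letters does not show that a factor binds,.

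Of 16 regulators and partners of ETS factors, all tested, 3 were higher, 3 lower and 10 not past the threshold, beside 23.3% higher and 19.5% lower over all genes tested. Their median log2 fold change was 0.02. The libraries of both lines did not overlap for 12 of them, beside 70.6% of all genes tested. TRIB1 and TRIB2, pseudokinases that work with the ubiquitin ligase COP1, were both higher. TRIB1 rose from 16.4 ± 0.953 to 131 ± 1.48 CPM (edgeR adjusted p = 6.6e-14), a log2 fold change of 3.00 with an SE of 0.0641, and TRIB2 from 0.2 ± 0.153 to 2.62 ± 0.222 CPM (3.69, and 4.54 without parental replicate 2). COP1 itself, which targets ETV1, ETV4 and ETV5 for degradation, had a log2 fold change of −0.17, and CIC, the repressor of the PEA3-group genes, one of 0.56, both short of the fold limit and named after their values were seen. FBXW7, a ubiquitin ligase subunit, fell by 0.84 on the log2 scale, and SRF, the partner of ELK4, by 0.67.

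Genes induced by MAPK signaling, as ETV4 and ETV5 are, did not all go with them. Of 8 such genes, 4 were higher and 1 was lower, beside 23.3% and 19.5% of all genes tested, with a median log2 fold change of 0.46. PHLDA1 rose from 1.91 ± 0.442 to 8.97 ± 0.394 CPM (log2 fold change 2.24) and SPRED1, an inhibitor of RAS signaling, from 9.02 ± 0.88 to 21.5 ± 1.91 CPM (1.26). DUSP4, a phosphatase of ERK, fell from 43.3 ± 1.4 to 8.19 ± 0.588 CPM (−2.40). CCND1, which encodes cyclin D1, had a log2 fold change of −0.49 and was short of the fold limit.

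Of 9 targets of SRF and the ternary complex factors, SRF among them, 6 were higher, 2 lower and 1 not past the threshold, beside 23.3% higher and 19.5% lower over all genes tested, with a median log2 fold change of 0.73. EGR1 rose from 0.608 ± 0.152 to 21.5 ± 1.99 CPM (log2 fold change 5.14, edgeR adjusted p = 1.11e-12), FOS from 0.418 ± 0.128 to 4.65 ± 0.509 CPM (3.47) and JUNB from 39.9 ± 0.472 to 66.2 ± 4.93 CPM (0.73).

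Invasion-type targets went both ways. Of 12 genes, 6 were tested, with 3 higher and 3 lower, beside 23.3% higher and 19.5% lower over all genes tested. VIM, which encodes vimentin, rose from 2.85 ± 0.135 to 6.41 ± 0.544 CPM (log2 fold change 1.17) and MMP1 from 0 to 4 counts per parental library to 21 to 24 counts (3.57, with 5.18 without parental replicate 3 and 2.98 without parental replicate 1). TWIST1 fell from 26.8 ± 0.534 to 7.29 ± 1.07 CPM (−1.88). MMP7 went from 46, 29 and 35 counts in parental libraries to 3, 3 and 1 counts in LNCaP-enzaR libraries (log2 fold change −3.96, SE 0.588). PLAU, MMP2, MMP3, MMP9, MMP14 and ZEB1 held at most 23 counts in any library and were not tested.

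Of 8 genes that go with ERG in prostate tumors, 2 were higher, 4 lower and 2 not past the threshold. Over all genes tested, 23.3% were higher and 19.5% lower. The median log2 fold change of the 8 genes was −0.65. CACNA1D, a calcium channel, rose from 4.09 ± 0.108 to 19.97 ± 1.29 CPM (log2 fold change 2.29) and KCNS3, a potassium channel subunit, from 4.27 ± 0.0652 to 18.2 ± 0.788 CPM (2.09). PLA1A, a phospholipase, fell by 1.53 on the log2 scale, and TDRD1, a piRNA pathway gene, went from 52 to 57 counts to at most 1 count and was at least 18.8-fold lower.

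Epithelial secretory genes linked to SPDEF, ELF3 and EHF went both ways. Of 13 tested genes, 3 were higher and 4 lower, beside 23.3% higher and 19.5% lower over all genes tested. The median of the 13 genes was −0.07 on the log2 scale. AGR2, a protein disulfide isomerase of secretory epithelium, fell from 72.4 ± 1.86 to 1.56 ± 0.144 CPM (log2 fold change −5.53, edgeR adjusted p = 3.72e-15), and CREB3L4 fell by 1.21 on the log2 scale. ERBB2, which encodes HER2, rose by 1.49. AGR3, FOXA3 and CREB3L1 held at most 15 counts in any library. For comparison with these lists, the median over all genes tested was 0.01. Of the exonic bases, 24.6% lie in exons of other genes for VIM, 14.2% for JUNB, 12.9% for CREB3L4, 12.1% for GABPA, 10.4% for CCND1, and 6.93% to 9.35% for ERBB2, TWIST1, CACNA1D, MMP1 and PHLDA1.

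**Figure D5:**
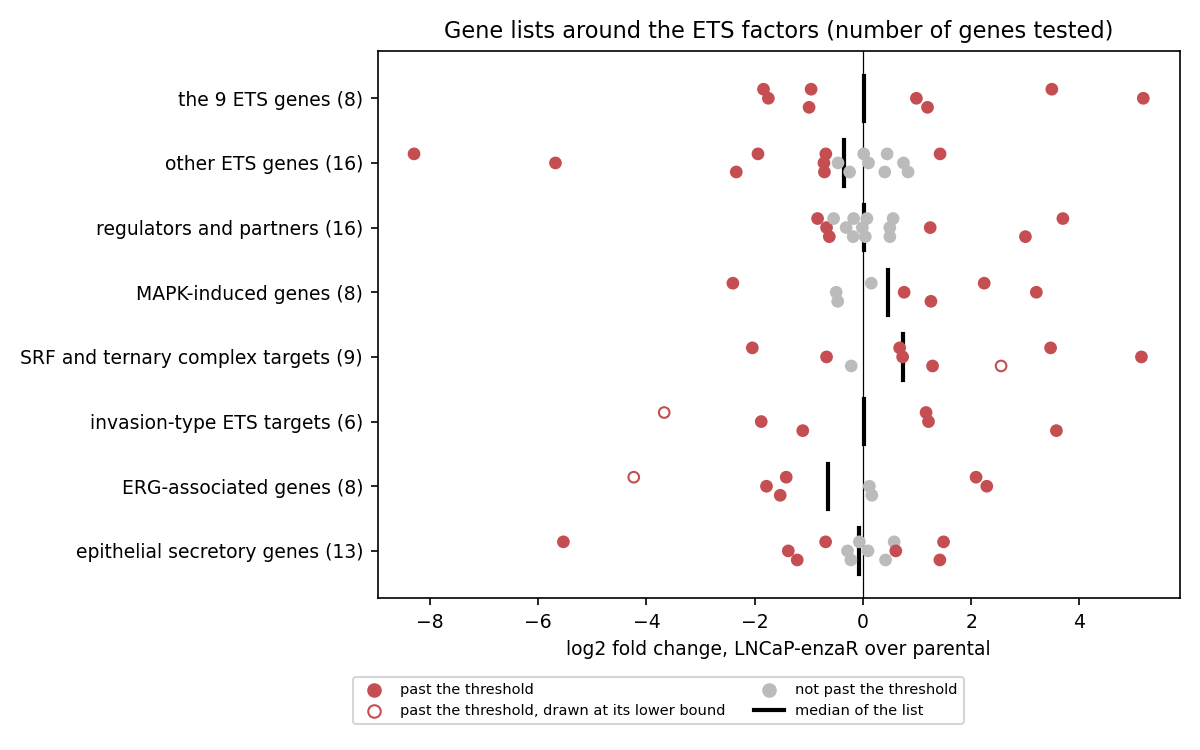
Log2 fold change (LNCaP-enzaR over parental) of each tested gene in the ETS gene lists, with genes past the threshold in red, others in gray, and the list median as a black bar. Open circles are genes with at most 3 counts in every library of a line, drawn at their change against 3 counts per library. For MMP7, with 3, 3 and 1 counts in LNCaP-enzaR, this value is not a lower bound. The SRF and ternary complex targets have the highest median (0.73) and the ERG-associated genes the lowest (−0.65).

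For the 5 members that reached the threshold and averaged 5 CPM or more, the pattern over the 6 libraries was set beside that of 10180 protein-coding genes by the root mean square difference of log2 levels centered on their mean. The most similar genes were COBL (0.0413) and MR1 (0.049) for ETS2, ABR (0.0207) and TMEM63A (0.025) for ELF3, EXOSC8 (0.0294) and ECT2 (0.0344) for EHF, UBE2T (0.0345) and NCAPD2 (0.0394) for SPDEF, and ZFYVE16 (0.0237) and MRPL3 (0.0286) for ELK4. All 6 libraries come from 2 lines, and the measure describes these libraries only.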

How the data were processed

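Polyadenylated RNA libraries were sequenced as paired-end reads. The authors trimmed adapters with Cutadapt, aligned reads to GRCh38.p13 with STAR and GENCODE, and deposited raw counts per gene from featureCounts, with no normalization. The strand setting and the handling of multi-mapping reads are not given in the sources used here. Columns were matched to samples by line and replicate number in the sample titles. For the analysis, edgeR 4.0.16 was run under R 4.3.3. The filterByExpr function kept 19711 genes with 99.96% of the counts. These were scaled by TMM and compared between lines by the quasi-likelihood F-test (robust setting, no covariates) with Benjamini-Hochberg adjustment. The limits of 0.05 and 1.5-fold are those of the study, which used DESeq2, run here (1.42.0) as an alternative. The SE was obtained from the fold change and its F statistic. Bounds were computed against 3 counts per library. Replicates come from separate flasks of 1 line, so p-values measure the spread between flasks. GENCODE v44 gave strand, exon length and exon overlap. It held 99.8% of the gene identifiers, and 91.4% of these had the same coordinates.

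The members and gene lists were chosen with earlier results of these data known. Named genes were the 9 genes, the other ETS genes past the threshold or not tested, up to 4 genes per list with the smallest p, the TMPRSS2 and SLC45A3 loci, the nearest protein-coding genes, and the 2 genes most similar in pattern, for which 0.5 was added to CPM before the log2. Some genes that this rule names are not reported here. Other genes, such as ELK1, ELF3-AS1, COP1, CIC and the list genes too low to test, were picked after their values were seen. Alternatives covered the tool (DESeq2), the scaling (RLE, library totals, upper quartile), the filter (none, or 10 counts or more in each library), the genes entered (protein-coding, or without mitochondrial genes), a block for the replicate number, omission of each library in turn, the fold limit and the gene length. The test script was first tested on simulated data.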

Additional observations from a re-analysis of the deposited data

How the results depend on the processing

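The 8 tested genes kept their direction in every alternative that could test them, and their side of the threshold in all of these but the 2-fold limit. ETV5 ranged from 4.87 to 5.40 on the log2 scale, ETV4 from 2.98 to 4.88, ETS2 from 1.13 to 1.29, ELF3 from 0.94 to 1.09, ETS1 from −1.21 to −0.83, ELK4 from −1.02 to −0.86, SPDEF from −1.78 to −1.65 and EHF from −1.88 to −1.74. Requiring at least 10 counts in every library left 2 higher members, since ETV4 and ETV5 had fewer in parental cells and were removed. A fold limit of 2 left 5 members, of which 2 were lower, because ELF3, ELK4 and ETS1 changed by slightly less. Over all genes, that limit gave 5561 calls, 2326 of them lower, and no minimum fold gave 13074, 6467 of them lower. Under upper-quartile scaling, the log2 values of all genes shifted by 0.10 at the median. With a gene length of the longest transcript or none, the share of SPDEF in the parental ETS sum was 20.1% or 8.38%, and with none it ranked below ETV1 (23.1%). ETV4, ETV5, ETS1 and ERG rest on few counts in at least 1 line, which limits the size of their changes. For the gene lists, the fold limit was not varied. Running all the other alternatives that apply to list counts was added after the data were seen. In these, no list count moved by more than 1.5 times.

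The replicate numbers did not pair the libraries, since the correlation of their deviations between same-numbered libraries was −0.0652 to −0.00041. With the replicate number as a block, all 8 members stayed past the threshold, 4 higher and 4 lower, at log2 fold changes of 3.66 for ETV4 and 5.21 for ETV5, and 8212 genes were called in all against 8425.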
